A study of Zea mays with 20 samples.

Results

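Transcripts of the maize line RIL118 were measured at early silking and at emerging tassel in the internode that carries the ear. RIL118 is a recombinant inbred line from the cross of F288 and F271, and in the labels it is the line with the unfavorable allele at the bin 9.02 locus for lignin content and cell wall degradability. It was represented by 2 arrays of early silking and 2 arrays of emerging tassel, chosen by their labels, which made 4 of the 20 Affymetrix arrays of the series. The other 16 arrays held the same 2 stages, with 2 arrays each, of RIL99 and RIL54 (favorable alleles at 4 of 4 loci) and of RIL39 and RIL71 (unfavorable allele at bin 6.06). All plants were field-grown under irrigation and otherwise untreated. The labels do not say whether 2 arrays of a group came from separate plants, so p-values measure the spread between arrays, which may be technical. With 1 line carrying the bin 9.02 allele, the line and the allele cannot be told apart.

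As background, a maize internode stops elongating while its cell walls change. During elongation, expansins loosen the primary wall, cellulose synthases at the plasma membrane lay down cellulose along tracks of cortical microtubules, and vacuolar invertase splits sucrose into hexoses that help to keep cells turgid. Later, fibers and vessels add a secondary wall of cellulose made by another set of synthases, and this wall is hardened with lignin, a polymer of monolignols that laccases and peroxidases join together. In bulk tissue, fewer cells of a type and less RNA per cell cannot be told apart.

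The arrays report log2 values per probe set, a set of short probes for 1 transcript, and a level below 5 was treated as low. Between 57.4% and 58.0% of maize probe sets lay above 5 on the 4 RIL118 arrays, against 57.2% to 58.0% on the 16 arrays of the other lines. The 2 early silking arrays of RIL118 correlated at 0.972 over the 11033 tested probe sets, and the 2 emerging tassel arrays at 0.934, the lowest of the 10 groups. Emerging tassel replicate 2 was closer to early silking replicate 1 (0.939) than to its own replicate. Replicates differed at least 2-fold for 716 probe sets at early silking and for 1350 at emerging tassel. The root mean square SD between replicates was 0.41 at early silking and 0.61 at emerging tassel in RIL118, against 0.30 to 0.48 and 0.18 to 0.50 in the other lines. The RNA amounts in the labels were 60.8 and 116 ng at early silking, against 159 and 129 ng at emerging tassel. The signal of the control transcripts at the 5′ end minus that at the 3′ end was -3.74 and -4.47 at early silking, against -4.57 and -3.90 at emerging tassel, so this measure of RNA integrity overlapped between stages. The RNA amount was entered as a covariate in an alternative fit given below.

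Each array was placed between the stages by a position measure. It is the median, over probe sets that changed at least 2-fold in the other 4 lines, of the array's distance from the emerging tassel mean of those lines divided by their stage difference, so 0 is their emerging tassel and 1 their early silking. Over the 2439 probe sets of this axis, the RIL118 early silking arrays lay at 0.69 and 0.86, and the emerging tassel arrays at 0.16 and 0.31. Arrays of the other lines, each set against its own other 4 lines, lay at 0.86 to 1.21 at early silking and at -0.25 to 0.20 at emerging tassel. Early silking replicate 1 thus lay below, and emerging tassel replicate 2 above, every array of the same stage in the other lines. The stages did not overlap within RIL118.

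**Figure D1:**
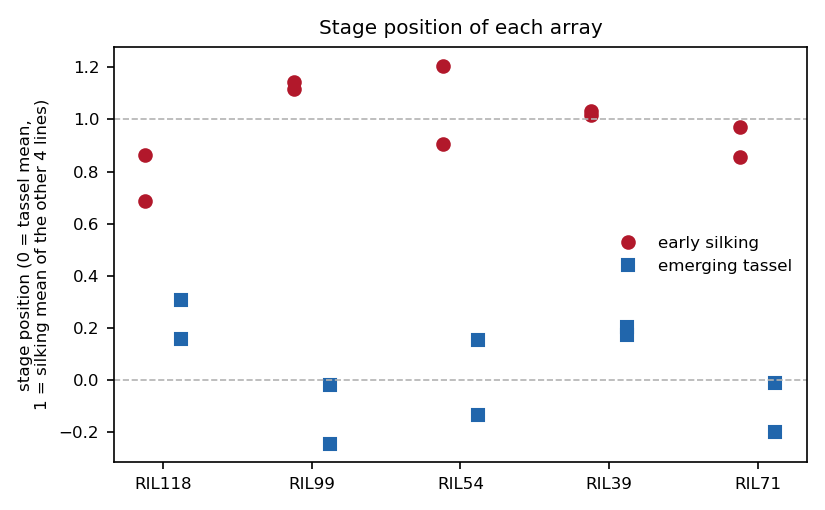
Stage position of each of the 20 arrays by line, with 0 for the emerging tassel mean and 1 for the early silking mean of the other 4 lines. Circles are early silking arrays and squares emerging tassel arrays. The RIL118 arrays span 0.16 to 0.86, a narrower range than that of each other line.

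The stage comparison asked which transcripts changed in RIL118 as the internode matured, with early silking minus emerging tassel fitted in limma beside the other groups. Of the 11033 tested probe sets, 1288 passed an adjusted p of 0.05 and are named called (11.7%), 725 higher (6.57%) and 563 lower (5.1%) at early silking. Falls were deeper than rises: of all tested probe sets 507 were at least 2-fold higher and 869 at least 2-fold lower, and 308 and 382 of these were called. For all 1288 called probe sets both early silking arrays lay on the same side of both emerging tassel arrays, which held for 6034 (54.7%) of those tested. The direction of 1202 called probe sets (93.3%) was that of the mean of the other 4 lines, and 1040 (80.7%) had the same sign in each of them. Another 22 went against each of the 4 lines. Agreement in sign was not counted over all tested probe sets. Across these the change in RIL118 correlated with the mean of the other 4 lines at 0.711.

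The size of the stage change was smaller in RIL118 than in the other lines. The median absolute change over the tested probe sets was 0.35 on the log2 scale in RIL118, against 0.61 in RIL99, 0.51 in RIL54, 0.44 in RIL39 and 0.49 in RIL71. Across probe sets, the change in RIL118 correlated with the mean change of the other lines at 0.711, with a slope of 0.55. Each other line, set against its own other 4, gave a correlation of 0.750 to 0.867 and a slope of 0.83 to 1.18. Probe sets are not independent replicates, and these values are descriptions. The median signed change was 0.05 in RIL118 and 0.14 in the mean of the other lines.

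**Figure D2:**
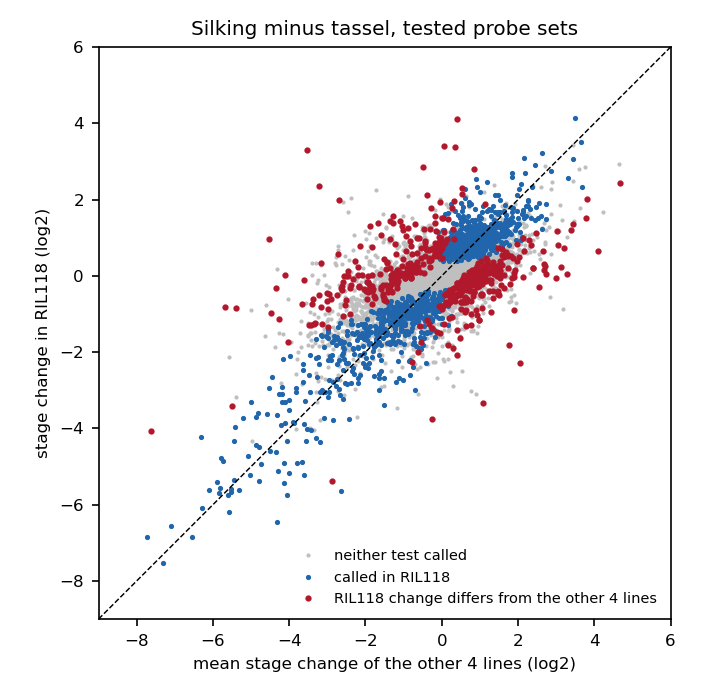
Stage change (early silking minus emerging tassel, log2) in RIL118 against the mean of the other 4 lines, 1 point per tested probe set. Blue points are called in RIL118, red points are the 507 whose change differed from the mean of the other 4 lines whether or not they are called in RIL118, and the dashed line marks equal change. Most points far from 0 on the horizontal axis lie closer to 0 on the vertical one.

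Among named genes, 36 rose and 38 fell in RIL118, and 84 of the 843 named probe sets were called (9.96%). The 10 largest falls were those of gar2, a beta-glucosidase, a glutathione transferase, a pathogenesis-related protein, a permease, an invertase and 4 expansins. gar2 (chromosome 10, gene 541620) had 3.26 and 1.80 at early silking, against 8.77 and 11.35 at emerging tassel. Its early silking arrays were below the low-level mark and its emerging tassel arrays well above it. It changed by -7.53 (SE 1.25, adjusted p = 0.00474), within the range of RIL99, RIL54, RIL39 and RIL71 (-9.73 to -6.0).

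glu1 (chromosome 10, gene 542414), a beta-glucosidase that releases benzoxazinoid toxins from their stored glucosides, had 3.82 and 2.70 at early silking and 8.71 and 10.69 at emerging tassel. The groups were far apart, with a change of -6.44 (SE 0.95, adjusted p = 0.0025). Elsewhere it was not uniform, at -8.48 in RIL99, -4.45 in RIL54, -4.59 in RIL71 and 0.22 in RIL39. LPE1 (chromosome 1, gene 542332), named for a leaf permease, had 2.07 and 2.08 at early silking and 7.43 and 7.50 at emerging tassel. Its replicates nearly coincided at both stages, and the change was -5.39 (SE 0.90, adjusted p = 0.00474). The early silking level is at the floor of the array values, which limits the change that can be read.

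The same floor was reached by gst12 (chromosome 1, gene 541830), of the glutathione transferases that couple glutathione to toxic compounds. It had 1.93 and 1.92 at early silking and 6.68 and 8.56 at emerging tassel, a change of -5.69 (SE 1.52, adjusted p = 0.0321). prp2 (chromosome 2, gene 542195), in the family of pathogenesis-related proteins, had 2.83 and 2.01 at early silking and 8.18 and 8.01 at emerging tassel. Its groups did not overlap, and its change of -5.68 (SE 1.22, adjusted p = 0.0138) lay within the range of the other lines (-6.47 to -4.72).

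ivr2 (chromosome 5, gene 542324), which encodes a soluble acid invertase of the vacuole, remained well above the low-level mark. It had 6.87 and 7.55 at early silking and 10.95 and 11.59 at emerging tassel, a change of -4.06 (SE 0.40, adjusted p = 0.000172), the smallest p among the 10 falls. Its early silking arrays lay apart from those of RIL99 and RIL54, and the difference in change is given with the line comparison below.

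Expansins made up the remaining falls. expA4 (gene 541906) had 2.19 and 2.19 at early silking and 4.69 and 7.60 at emerging tassel. The silking arrays were at the floor and the tassel arrays differed between themselves, with a change of -3.95 (SE 0.88, adjusted p = 0.0162). A dimmer probe set of expA4 had 1.88 and 1.83 at early silking and 5.16 and 5.11 at emerging tassel. Its change was -3.28 (SE 0.84, adjusted p = 0.0281 by limma). expB8 (chromosome 9, gene 542496) had 7.30 and 4.47 at early silking and 9.39 and 10.21 at emerging tassel, a change of -3.92 (SE 0.85, adjusted p = 0.0145). expB4 (chromosome 7, gene 541909) had 3.94 and 3.60 at early silking and 5.36 and 8.36 at emerging tassel, a change of -3.09 (SE 0.70, adjusted p = 0.0173). EXPA5 (chromosome 6, gene 541907) had 6.22 and 3.91 at early silking and 8.19 and 7.93 at emerging tassel, a change of -2.99 (SE 0.79, adjusted p = 0.0311). At the probe set given first for each of these 4 genes, 1 stage had replicates more than 2 log2 units apart, yet the stages did not overlap.

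The rises were smaller and were led by a MYB factor and cytokinin response genes. myb42 (chromosome 4, gene 100101513), known as a repressor of phenylpropanoid genes, had 7.26 and 6.15 at early silking and 4.25 and 3.77 at emerging tassel. The groups were separate, with a change of 2.70 (SE 0.35, adjusted p = 0.00111). Changes in the other lines ranged from 0.82 in RIL39 to 4.85 in RIL99. myb31 (chromosome 2, gene 100037768), another MYB repressor of lignin genes in maize, had 6.68 and 7.23 at early silking and 5.69 and 4.98 at emerging tassel. It rose by 1.62 (SE 0.39, adjusted p = 0.0229), against a range of -0.24 to 0.54 in the other lines. The test of that difference gave an adjusted p of 0.0678.

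Response regulators are turned on by cytokinin and dampen its signal. RR7 (chromosome 4, gene 541633) had 7.64 and 9.38 at early silking and 6.16 and 5.48 at emerging tassel, a rise of 2.69 (SE 0.55, adjusted p = 0.0112). RR4 (chromosome 8, gene 541630) had 5.46 and 5.46 at early silking and 3.15 and 3.46 at emerging tassel, a rise of 2.15 (SE 0.38, adjusted p = 0.00586). Both silking arrays were above both tassel arrays for each gene. RR4 was close to the low-level mark in RIL118, and in the other lines its change ran from -0.47 to 1.86.

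CCamK (chromosome 4, gene 732824), a kinase that responds to calcium and calmodulin, had 6.26 and 6.56 at early silking and 4.48 and 3.70 at emerging tassel. It rose by 2.32 (SE 0.38, adjusted p = 0.004), and its emerging tassel arrays were below the low-level mark. PEAMT (gene 542178), the methyltransferase that makes phosphocholine from phosphoethanolamine, had 12.01 and 12.13 at early silking and 10.71 and 10.30 at emerging tassel. It rose by 1.57 (SE 0.40, adjusted p = 0.0277), and it was high in RIL118 at both stages, since the 16 arrays of the other lines spanned 4.56 to 9.51.

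The other rises were in chaperones and a ribosomal protein. hsp18f (chromosome 3, gene 542723), a small heat shock protein, had 4.6 and 5.44 at early silking and 3.81 and 3.33 at emerging tassel, a rise of 1.45 (SE 0.34, adjusted p = 0.0206). Of its RIL118 arrays only early silking replicate 2 lay above the low-level mark. CPN60I (chromosome 5, gene 542736), a mitochondrial chaperonin, had 9.47 and 9.83 at early silking and 7.75 and 8.96 at emerging tassel, a rise of 1.29 (SE 0.31, adjusted p = 0.0208). CPNB (gene 542707) rose by 1.28 (SE 0.30, adjusted p = 0.0204) and rpp2a-3 (gene 542338), an acidic protein of the ribosomal stalk, by 1.33 (SE 0.36, adjusted p = 0.0333). In the other lines the mean change was 1.09 for CPN60I, 1.27 for CPNB, 0.72 for rpp2a-3 and -1.35 for hsp18f. The test of the difference from RIL118 was passed by hsp18f alone among these 4, with adjusted p of 0.388 to 0.989 for the others.

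**Figure D3:**
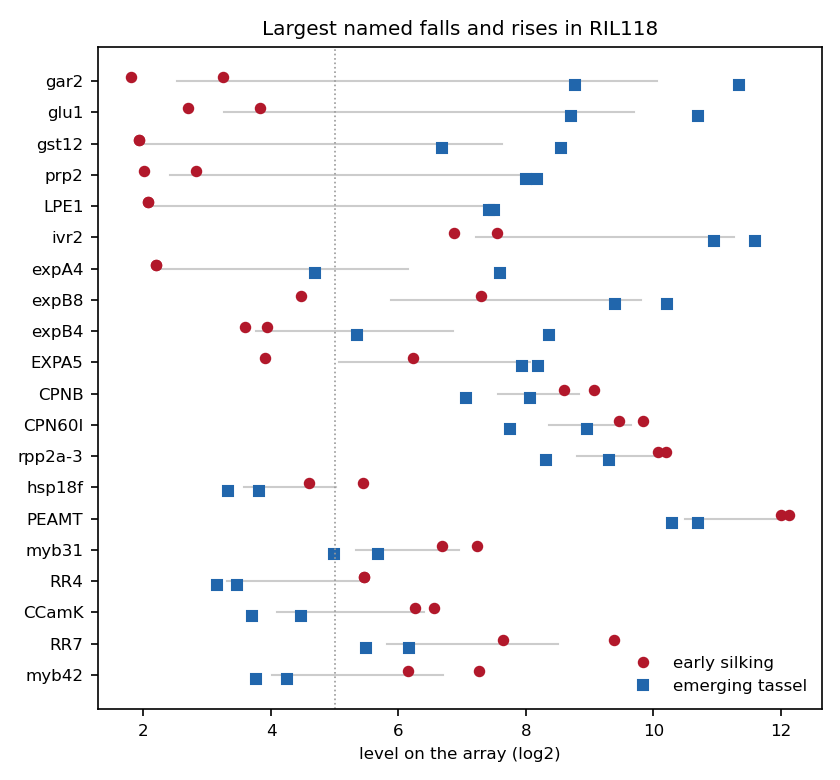
Log2 level on each RIL118 array of the 10 named genes with the largest falls (top) and the 10 with the largest rises (bottom). Red circles are the 2 early silking arrays, blue squares the 2 emerging tassel arrays, grey lines join the stage means, and the dotted line marks the level of 5. The stages do not overlap for any gene, as the choice required, and 7 of the 10 falls have an early silking mean below 5.

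Of these 20 genes, 14 had the same sign in each of the other 4 lines, 6 of the rises and 8 of the falls. Of all called probe sets 80.7% did. Single arrays decided many of the calls. Without early silking replicate 2, the calls of myb42, CCamK, glu1, LPE1 and ivr2 held and the other 15 were lost (adjusted p 0.051 to 0.265), and the count over all probe sets dropped to 180. Without emerging tassel replicate 1 the count was 562, and PEAMT, rpp2a-3, CPN60I, CPNB, gst12, prp2 and EXPA5 were lost (0.0612 to 0.221). Without early silking replicate 1 it was 764, and PEAMT, rpp2a-3, gst12, expA4 and expB4 were lost (0.0507 to 0.115). Without emerging tassel replicate 2 it was 1492, and myb31, PEAMT, hsp18f, gst12, expA4, expB8 and EXPA5 were lost (0.0507 to 0.117). With the log2 RNA amount as a covariate 788 were called, and with arrays weighted by the spread of their group 543. Fitted on the 4 RIL118 arrays alone, 15 probe sets were called, all lower at early silking, among them LPE1.

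Most called transcripts had no gene name here. The unnamed probe set with the second largest fall had 2.27 and 2.26 at early silking and 8.86 and 9.36 at emerging tassel, a change of -6.84 (SE 0.41, adjusted p = 5.5e-06), and the largest unnamed fall was -6.85 (SE 1.01). The 2 largest unnamed rises were 4.14 (SE 0.78) and 4.12 (SE 0.73). The second of these had 8.38 and 8.37 at early silking and 3.81 and 4.70 at emerging tassel in RIL118, while the mean change of the other lines was 0.41, and the difference was called (adjusted p = 0.0284).

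Wall-loosening genes had mostly negative changes, and part of them were called. Of 9 measured genes in the list of expansins with xet1, a xyloglucan endotransglucosylase, 4 fell, 0 rose and 5 were not called, where 5.1% of all tested probe sets fell, 6.57% rose and 44.7% had a negative change. The median change was -1.92 in RIL118 and -2.51 in the other lines, beside 0.05 and 0.14 over all tested probe sets. In the mean of the other lines 8 of the 9 fell, where 26.8% of tested probe sets did. expB8 is represented in the list by a brighter probe set, which had 8.72 and 7.07 at early silking and 10.31 and 11.07 at emerging tassel (-2.79, SE 0.66, adjusted p = 0.02). Not called were expa1 at -1.92, expA3 at -1.88, expB6 at -0.60, xet1 at 0.40 and expB7 at 1.4. Each of the 4 calls was lost without early silking replicate 2 (adjusted p 0.0948 to 0.265). expA4, expB8 and EXPA5 were lost without emerging tassel replicate 2 (0.0625 to 0.073), expA4 and expB4 without early silking replicate 1 (0.0587 and 0.0507), and EXPA5 without emerging tassel replicate 1 (0.124).

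Cellulose synthases of the primary wall fell in part. Of 9 measured genes 3 fell, where 5.1% of all tested probe sets did, and 6 were not called. A negative change was measured in 8 of 9, against 44.7% of all tested probe sets. The median was -0.81 in RIL118, further from 0 than the -0.68 in the other lines. cesa8 had 9.19 and 8.37 at early silking and 10.71 and 10.18 at emerging tassel, a change of -1.66 (SE 0.42, adjusted p = 0.0254). cesa2 had 10.91 and 10.37 at early silking and 11.65 and 12.01 at emerging tassel, a change of -1.19 (SE 0.31, adjusted p = 0.0283). cesa6 had 11.17 and 11.04 at early silking and 12.28 and 11.75 at emerging tassel, a change of -0.91 (SE 0.24, adjusted p = 0.0311). The early silking arrays lay below the emerging tassel arrays for all 3 genes. All 3 calls were lost without early silking replicate 2 (0.169 to 0.213) and without emerging tassel replicate 1 (0.0612 to 0.192), cesa2 also without emerging tassel replicate 2 (0.0999) and cesa6 without early silking replicate 1 (0.0787).

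None of the 4 measured genes of secondary-wall cellulose was called in RIL118, while 4 of 4 fell in the mean of the other lines. Over all tested probe sets 5.1% fell in RIL118 and 26.8% in that mean, which rests on 16 arrays. The median change was -1.09 in RIL118 and -2.06 in the other lines. cesa11 had 12.15 and 10.95 at early silking and 13.09 and 12.86 at emerging tassel (-1.42, SE 0.49, adjusted p = 0.0823). cesa10 had 12.23 and 11.27 at early silking and 12.98 and 12.79 at emerging tassel (-1.14, SE 0.47, adjusted p = 0.135). CesA12 was at -1.04 (SE 0.49, adjusted p = 0.19) and bk2, a COBRA-like protein needed for stem strength, at -1.04 (SE 0.54, adjusted p = 0.229). In each gene early silking replicate 2 was about 1 log2 unit below replicate 1, and both lay below the emerging tassel arrays. The test of the difference from the other lines gave adjusted p of 0.158 to 0.504 for the 4 genes. Without either RIL54 early silking array, cesa10 and cesa11 were called in RIL118 (adjusted p 0.035 and 0.0183).

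Tubulins, the subunits of microtubules, had negative changes in 12 of 12 genes, where 44.7% of all tested probe sets did, and 3 fell at the brightest probe set of the gene. tub6 was not called there (-0.54, adjusted p = 0.0889) but fell at 2 of its 3 dimmer probe sets, by 1.43 (adjusted p = 0.0355) and 1.56 (adjusted p = 0.0404). The median was -0.58 in RIL118 and -1.31 in the other lines. tua6, an alpha-tubulin, had 11.75 and 11.89 at early silking and 12.68 and 12.91 at emerging tassel, a change of -0.97 (SE 0.16, adjusted p = 0.00498) that held without each RIL118 array. The beta-tubulin TUBB2 had 9.99 and 10.04 at early silking and 10.95 and 10.96 at emerging tassel, a change of -0.94 (SE 0.21, adjusted p = 0.0153). tub3 fell by 0.67 (SE 0.17, adjusted p = 0.0258). TUBB2 and tub3 were lost without early silking replicate 2 (0.0869 and 0.207) and without emerging tassel replicate 1 (0.0604 and 0.0623), TUBB2 also without early silking replicate 1 (0.0617) and tub3 without emerging tassel replicate 2 (0.0802). Among kinesins, motors that run along microtubules, KIN9 fell by 0.53 (SE 0.15, adjusted p = 0.0355) and 3 of 4 were not called. The KIN9 call was lost without early silking replicate 2 (0.254) or either emerging tassel array (0.0956 and 0.0889) of RIL118, and without any RIL39 emerging tassel array (0.0551) or RIL99 early silking array (0.0543).

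Few genes of lignin synthesis were named, and those of the monolignol pathway did not pass the test in RIL118. pal3, a phenylalanine ammonia lyase at the entry of the pathway, had 13.97 and 13.83 at early silking and 14.09 and 13.85 at emerging tassel, a change of -0.07 (SE 0.15, adjusted p = 0.799). The 4-coumarate ligase 4CL had 13.14 and 12.32 at early silking and 13.06 and 13.06 at emerging tassel, a change of -0.33 (SE 0.40, adjusted p = 0.639). Stages overlapped for both genes. The other lines changed by -1.71 to -1.11 for 4CL, and the test of the difference from RIL118 gave an adjusted p of 0.19.

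Of the 3 monolignol genes, cncr1, a cinnamoyl-CoA reductase, had 14.01 and 13.78 at early silking and 13.85 and 13.87 at emerging tassel (0.04, SE 0.21, adjusted p = 0.941). BM1, the cinnamyl alcohol dehydrogenase of the brown midrib 1 locus, had 13.70 and 13.56 at early silking and 14.02 and 14.02 at emerging tassel (-0.39, SE 0.14, adjusted p = 0.0835). BM1 passed without a filter on low values (0.0469) and with a trended, robust prior (0.0466). ccr2, another cinnamoyl-CoA reductase, had 2.78 and 2.73 at early silking and 6.88 and 3.41 at emerging tassel (-2.39, SE 1.04, adjusted p = 0.156). Its emerging tassel arrays were 3.47 log2 units apart, and it was called without replicate 2 of that stage (0.0207).

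Of the 3 enzymes that can join monolignols, 1 fell. The peroxidase pox2 had 4.86 and 2.77 at early silking and 5.74 and 5.35 at emerging tassel, a change of -1.73 (SE 0.47, adjusted p = 0.0359). The call was lost without early silking replicate 2 (0.221), emerging tassel replicate 1 (0.159) or replicate 2 (0.0533), and without either RIL39 emerging tassel array (0.0535). The peroxidase PER42 had 10.95 and 10.38 at early silking and 10.12 and 11.31 at emerging tassel, and the laccase LAC1 had 8.33 and 9.70 at early silking and 8.57 and 7.56 at emerging tassel. Stages overlapped for both, with changes of -0.05 (SE 0.41, adjusted p = 0.957) and 0.95 (SE 0.45, adjusted p = 0.19).

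**Figure D4:**
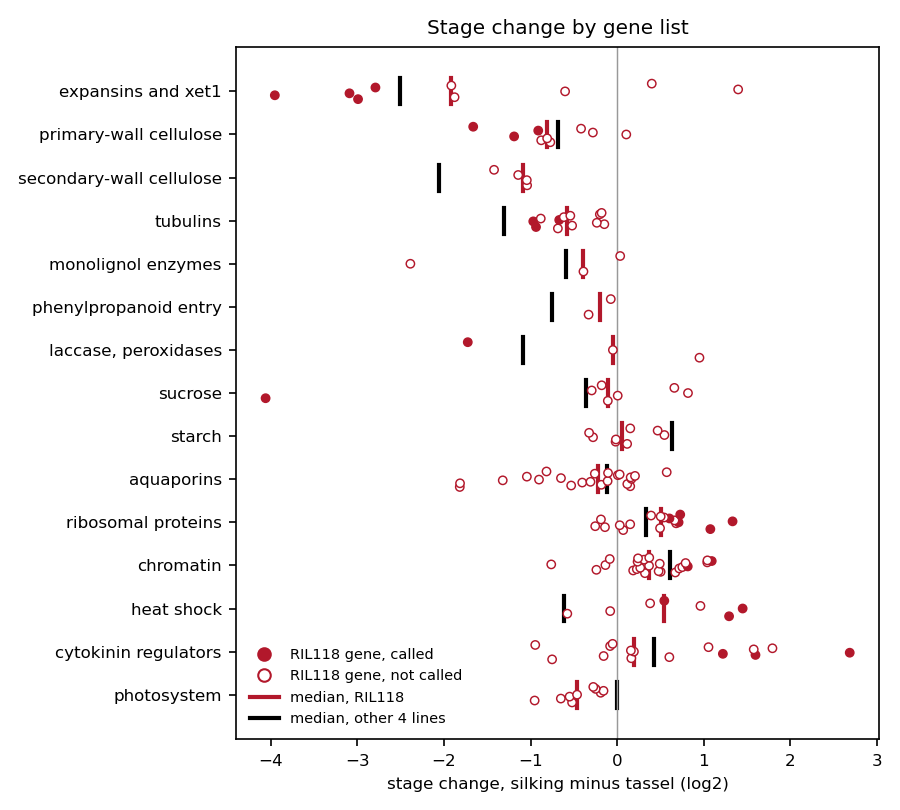
Stage change (early silking minus emerging tassel, log2) of the genes in a selection of the lists. Circles are genes in RIL118, filled where called, red bars mark the list median in RIL118 and black bars that in the mean of the other 4 lines. The red bar is closer to 0 than the black one for expansins, secondary-wall cellulose, tubulins and starch, and lies on the other side of 0 for heat shock proteins.

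The lists of sugar and starch genes held 1 fall. Of 7 listed sucrose genes ivr2 fell and 6 were not called. Of 8 listed starch genes 0 were called in RIL118. In the mean of the other lines 6 of them rose, where 40.5% of tested probe sets rose. The median of the starch list was 0.05 in RIL118 and 0.64 in the other lines. Outside the lists, GBSSIIa, a granule-bound starch synthase, had 5.61 and 6.24 at early silking and 7.49 and 7.80 at emerging tassel. It changed by -1.72 (SE 0.38, adjusted p = 0.0154 by limma). The fructokinase frk2, also outside them, changed by -0.71 (SE 0.21, adjusted p = 0.0473 by limma). Sugar and starch genes outside the lists that were not called were not counted. sbe1, a branching enzyme that adds side chains to starch, had 8.69 and 9.10 at early silking and 9.16 and 9.28 at emerging tassel in RIL118, a change of -0.32 (SE 0.29, adjusted p = 0.51). None of 22 aquaporins, the water channels of membranes, was called in RIL118, against 5 higher and 7 lower in the mean of the other lines. Over all tested probe sets 11.7% were called in RIL118, and 40.5% rose and 26.8% fell in that mean, so the aquaporin counts there were not above the background. Nor was either dehydrin, with dhn1 at -1.81 and dhn2 at -0.14.

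Ribosomal proteins were among the rises. Of 17 genes 5 rose, where 6.57% of all tested probe sets did, 0 fell and 12 were not called, and 14 of 17 had a positive change, with a median of 0.50 in RIL118 and 0.33 in the other lines. RPL19 had 11.09 and 11.29 at early silking and 9.82 and 10.40 at emerging tassel, a rise of 1.08 (SE 0.18, adjusted p = 0.00511). rps6 had 12.72 and 12.84 at early silking and 11.75 and 12.35 at emerging tassel, a rise of 0.73 (SE 0.18, adjusted p = 0.0213). rpp3 rose by 0.60 (SE 0.16, adjusted p = 0.033). In all 3 genes emerging tassel replicate 1 was the lowest array. Without early silking replicate 2 the 3 calls were lost (0.0568 to 0.2). rps6 and rpp3 were also lost without emerging tassel replicate 1 (0.14 and 0.183) or early silking replicate 1 (0.0559 and 0.0684), and rpp3 without either RIL99 early silking array (0.0509).

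Of 24 listed chromatin genes 2 rose, a share near the 6.57% of all tested probe sets that rose. The list does not hold every chromatin gene. Outside it mbd101 (0.57), the DNA methyltransferase dmt106 (0.77) and smh3 (0.80) also rose (adjusted p 0.0355, 0.0213 and 0.0279 by limma). Chromatin genes outside it that were not called were not counted. A positive change was measured in 20 of the 24, against 55.3% of all tested probe sets, with a median of 0.37 in RIL118 and 0.62 in the other lines. nfa103, a nucleosome assembly factor, had 9.66 and 9.74 at early silking and 8.21 and 8.99 at emerging tassel, a rise of 1.09 (SE 0.25, adjusted p = 0.0173). hdt103, a plant-type histone deacetylase, had 12.12 and 12.09 at early silking and 10.99 and 11.59 at emerging tassel, a rise of 0.82 (SE 0.18, adjusted p = 0.0166). Both were lost without early silking replicate 2 (0.111 and 0.0943), early silking replicate 1 (0.0547 and 0.0633) or emerging tassel replicate 1 (0.119 and 0.109).

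Heat shock proteins rose in 3 of 7 genes and fell in 0, where 6.57% of all tested probe sets rose and 5.1% fell. The change was positive in 5 of the 7 and negative in 2, with a median of 0.54 in RIL118 and -0.61 in the other lines. Besides hsp18f and CPN60I, hsp70-5 had 13.39 and 13.35 at early silking and 12.92 and 12.73 at emerging tassel, a rise of 0.54 (SE 0.14, adjusted p = 0.031). Its call was lost without any 1 of the 4 RIL118 arrays (0.057 to 0.139).

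Among 15 cytokinin regulators 3 rose (RR7, RR4 and RR5), where 6.57% of all tested probe sets rose, 0 fell and 12 were not called. The change was positive in 10 of the 15 and negative in 5, with a median of 0.19 in RIL118 and 0.42 in the other lines. In the mean of the other lines 8 rose and 4 fell, where 40.5% and 26.8% of tested probe sets did. RR5 had 9.26 and 9.77 at early silking and 8.61 and 7.98 at emerging tassel, a rise of 1.22 (SE 0.33, adjusted p = 0.0323). The RR4 probe set of this list, brighter on average than the one above, had 5.14 and 5.25 at early silking and 3.56 and 3.64 at emerging tassel (1.60, SE 0.30, adjusted p = 0.00736). RR7, RR4 and RR5 were lost without early silking replicate 2 (0.111, 0.067 and 0.224), and RR5 without emerging tassel replicate 2 (0.14). Of 9 cell cycle genes only cycD2, a D-type cyclin, was called at its brightest probe set, while the histone gene his1 passed only at one that was dimmer over the 20 arrays (0.69, adjusted p = 0.0262). cycD2 had 10.92 and 10.60 at early silking and 9.85 and 9.84 at emerging tassel, a rise of 0.91 (SE 0.24, adjusted p = 0.0292) that was lost without any 1 of the 4 RIL118 arrays (0.0682 to 0.142).

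Of 16 glutathione transferases 9 had a negative and 7 a positive change, with a median of -0.51 in RIL118 and -0.89 in the other lines. Of the 16, 2 fell, where 5.1% of all tested probe sets did, and 14 were not called. The falls were those of gst12 and gst14 (-2.82, SE 0.75, adjusted p = 0.0313). gst14 had 2.26 and 3.63 at early silking and 5.99 and 5.54 at emerging tassel, and both calls were lost without any 1 of the 4 RIL118 arrays (0.0544 to 0.168). prp2 was the only called member of 5 defence genes. No member passed among 11 genes of nitrogen use and senescence, 9 of fermentation and glycolysis, 6 of metal transport, 4 of ethylene synthesis with alternative oxidase, 4 of hormone growth control, 3 of benzoxazinoid synthesis and 2 lipoxygenases. Over all tested probe sets 11.7% were called, so the lack of a call in lists this small is no result about them. The nitrite reductase NIR, outside the list of nitrogen use, did fall in RIL118 and is given with the line comparison below. Over the 33 lists, 16 had no called member in RIL118 and 21 had a median closer to 0 in RIL118 than in the other lines. The median over all tested probe sets was also closer to 0 in RIL118 (0.05) than in the other lines (0.14).

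Genes of tissues other than stem were listed to check what the samples held. All 9 photosystem genes had levels above 5 on each RIL118 array, and 9 of 9 had a negative change that was not called, with a median of -0.46 in RIL118 and -0.0046 in the other lines. Their summed signal, as log2, was 14.75 and 15.34 at early silking and 15.12 and 15.83 at emerging tassel, so the stages overlapped. Of 8 genes of leaf carbon fixation pep4, a phosphoenolpyruvate carboxylase, rose by 1.20 (SE 0.31, adjusted p = 0.0284), a call lost without early silking replicate 2 (0.248) or emerging tassel replicate 2 (0.126). The summed signal of that list was 13.64 and 14.13 at early silking and 13.93 and 14.37 at emerging tassel. Of 14 kernel storage genes, 13 were too low to test, and the zein gz27 was at -2.09 (adjusted p = 0.061). Their summed signal was 6.91 and 7.09 at early silking and 9.33 and 7.71 at emerging tassel. Of 7 pollen and tassel genes only mfs2 was tested, at -0.54, with a summed signal of 5.35 and 5.95 at early silking and 6.25 and 5.57 at emerging tassel. Of 26 meristem genes 9 were tested and the MADS factor zmm16 rose by 1.17 (SE 0.32, adjusted p = 0.0338), a call lost without either early silking array (0.102 and 0.154), emerging tassel replicate 1 (0.174) or either RIL39 emerging tassel array (0.0511). zmm16 was near or below the low-level mark, with 5.01 and 5.01 at early silking and 3.63 and 4.05 at emerging tassel. The summed meristem signal was 13.83 and 13.97 at early silking and 13.74 and 13.64 at emerging tassel.

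Of 10 epidermis genes 4 were tested, and fae1, a fatty acid elongase, fell. It had 5.72 and 4.89 at early silking and 7.25 and 7.75 at emerging tassel (-2.20, SE 0.53, adjusted p = 0.0216), and the call was lost without early silking replicate 2 (0.169) or either emerging tassel array (0.0556 and 0.0739). The summed signal of the epidermis list was 11.47 and 10.34 at early silking and 11.64 and 11.42 at emerging tassel. It was lowest in early silking replicate 2, the array without which most calls were lost. The part of these signals in the results was not tested.

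The second comparison asked where the stage change of RIL118 differed from that of the other 4 lines, as an interaction in the same fit. It called 507 probe sets (4.6%), 228 with a higher (2.07%) and 279 with a lower change in RIL118 (2.53%). Of these, 388 were not called in RIL118 itself. For 279 (55.0%) the change had opposite signs in RIL118 and in the mean of the other lines, which fell on average for 124 of these and rose for 155. Of these 279, the RIL118 change itself was called for 70. For 196 (38.7%) the sign was the same and the change was closer to 0 in RIL118, and for 32 it was the same and further from 0. Whatever the sign, the mean change of the other lines was the one further from 0 for 377 (74.4%). The direction was the same against each of the 4 lines for 483 (95.3%). The 507 were chosen by their difference from the mean of these same lines, which favors such agreement. These shares were not counted over all tested probe sets. At 47 of the 507 all RIL118 arrays were below 5. The count was 67 without early silking replicate 1 and 230 without early silking replicate 2 of RIL118. It was 1056 without emerging tassel replicate 1 of RIL54. Between 214 and 336 were called without any 1 of the 4 RIL39 arrays, either RIL99 early silking array, RIL99 emerging tassel replicate 1 or RIL71 early silking replicate 2.

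Among named genes, several falls of the other lines were missing in RIL118. AGA3b (chromosome 1) had 2.08 and 2.08 at early silking and 2.19 and 2.21 at emerging tassel in RIL118. In the other lines it ranged from 2.08 to 2.11 at early silking and from 4.09 to 7.20 at emerging tassel. It was thus at the floor on all 4 RIL118 arrays and at early silking in the other lines, and the difference in change of 3.49 (SE 0.37, adjusted p = 0.00101) came from emerging tassel alone. ivr2 fell less in RIL118 than in the mean of the other lines, by a difference of 3.56 (SE 0.44, adjusted p = 0.00199), with changes of -10.79 in RIL99, -10.28 in RIL54, -4.10 in RIL39 and -5.32 in RIL71. For ivr2, the difference was 6.48 (SE 0.48) against the favorable lines and 0.65 (SE 0.48, adjusted p = 0.534) against the bin 6.06 lines.

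The calcium sensor calmodulin (chromosome 1) had 9.53 and 9.25 at early silking and 9.55 and 9.14 at emerging tassel in RIL118, so the stages overlapped. In the other lines it was 7.25 to 8.87 at early silking and 8.74 to 10.21 at emerging tassel, and the difference in change was 1.66 (SE 0.21, adjusted p = 0.00203). tip1, a water channel of the vacuole membrane, had 11.20 and 11.11 at early silking and 11.59 and 11.24 at emerging tassel in RIL118. In the other lines it was 7.90 to 9.79 at early silking and 10.90 to 12.23 at emerging tassel. All RIL118 arrays were thus near the emerging tassel level of the other lines, with a difference of 2.37 (SE 0.39, adjusted p = 0.00825).

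gpc4 and gpc3, which encode cytosolic glyceraldehyde-3-phosphate dehydrogenases, showed a like pattern. gpc4 had 9.77 and 9.18 at early silking and 9.93 and 10.01 at emerging tassel in RIL118, against changes of -4.01 to -1.47 in the other lines (difference 2.73, SE 0.38, adjusted p = 0.0035). Its emerging tassel level in RIL118 was below the range of the other lines (10.44 to 12.27). gpc3 had 11.49 and 10.85 at early silking and 11.27 and 11.39 at emerging tassel in RIL118 (difference 2.44, SE 0.54, adjusted p = 0.0294). Its early silking level was above the range of the other lines (8.52 to 10.25). The gpc3 call was lost without any 1 of the 4 RIL118 arrays (0.0526 to 0.165) and without either RIL39 emerging tassel array (0.0562 and 0.0509).

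Of the beta-expansins, expB7 had 11.41 and 10.21 at early silking and 9.47 and 9.35 at emerging tassel in RIL118, and its change differed from the other lines by 3.08 (SE 0.61, adjusted p = 0.0188). expB6 had 8.92 and 8.21 at early silking and 8.39 and 9.93 at emerging tassel in RIL118, with a difference of 2.78 (SE 0.56, adjusted p = 0.0198). The stages were separate for expB7 and overlapped for expB6. Both calls were lost without early silking replicate 1 (0.124 and 0.127), expB7 also without emerging tassel replicate 2 (0.0501) and expB6 without emerging tassel replicate 1 (0.0665). tub6, a beta-tubulin, was at -0.54 in RIL118 and at -1.79 to -1.33 in the other lines (difference 1.0, SE 0.22, adjusted p = 0.0272), a call lost without either early silking array (0.131 and 0.0715) or emerging tassel replicate 2 of RIL118 (0.0834), or either RIL39 emerging tassel array (0.051 and 0.0523). At the 3 dimmer probe sets of tub6 the difference was 1.55 to 1.76 and was not called (0.0609 to 0.0953).

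Heat shock proteins gave some of the largest differences. hsp22, a small heat shock protein, had 8.53 and 9.17 at early silking and 8.27 and 7.50 at emerging tassel in RIL118. Its changes were -8.64 in RIL99, -4.82 in RIL54, 1.03 in RIL39 and -5.74 in RIL71, so RIL39 was at a value like that of RIL118, and the difference from the mean was 5.5 (SE 0.71, adjusted p = 0.00237). For hsp18f the difference was 2.80 (SE 0.39, adjusted p = 0.00325), and RIL99 alone was at -4.03. PEAMT, which rose in RIL118, had changes of -2.34 to -0.04 in the other lines (difference 2.84, SE 0.45, adjusted p = 0.0064). RR5 differed by 1.70 (SE 0.36, adjusted p = 0.0268), with -0.79 to -0.15 in the other lines, and this call was lost without either early silking array (0.0706 and 0.0969) or emerging tassel replicate 2 of RIL118 (0.0857), or RIL39 emerging tassel replicate 2 (0.0501).

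**Figure D5:**
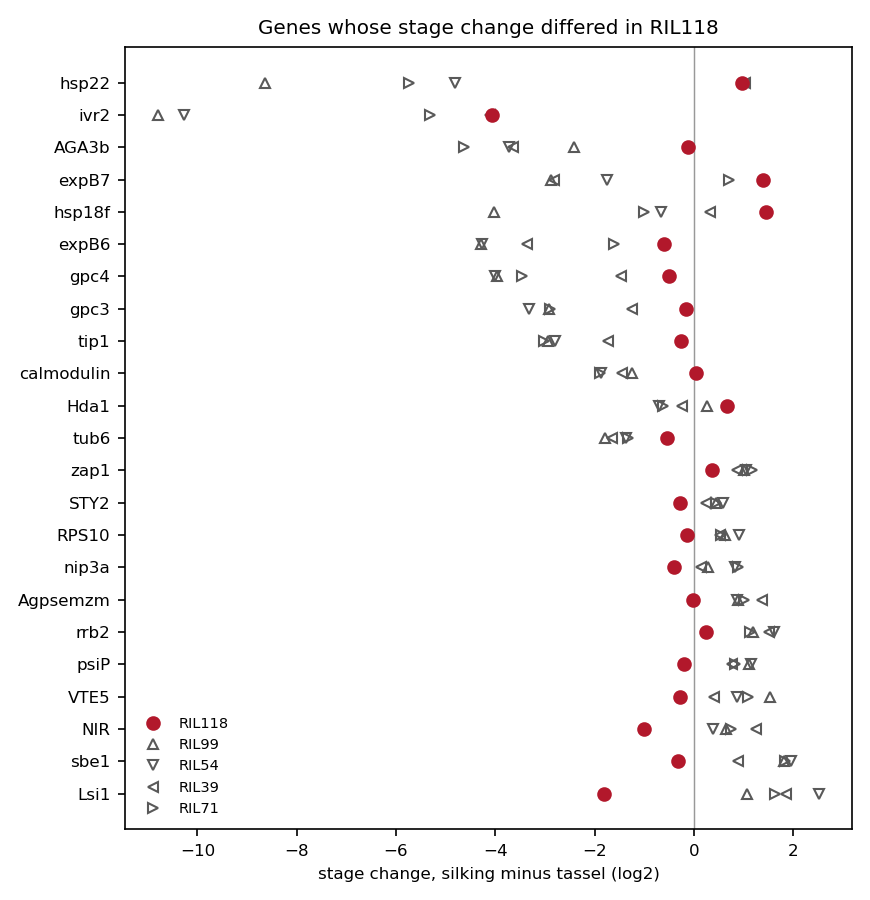
Stage change (early silking minus emerging tassel, log2) of 23 genes named for a change that differed between RIL118 and the mean of the other 4 lines. Red circles are RIL118 and open triangles are RIL99, RIL54, RIL39 and RIL71. RIL118 lies outside the range of the other lines for 22 of the 23, hsp22 being the exception, which the choice of genes favors. Of the 23, 20 were not called in RIL118 itself.

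Other genes rose in the other lines and not in RIL118. sbe1 had changes of 0.89 to 1.97 in the other lines, and the difference was -1.95 (SE 0.33, adjusted p = 0.00916). Its emerging tassel level in RIL118, 9.16 and 9.28, was at the top of the range of the other lines (6.99 to 9.26). Agpsemzm, a subunit of the ADP-glucose pyrophosphorylase that supplies starch synthesis, had 10.61 and 10.47 at early silking and 10.23 and 10.89 at emerging tassel in RIL118, with a difference of -1.05 (SE 0.27, adjusted p = 0.0496). The sbe1 call was lost without early silking replicate 1 (0.0767), and that of Agpsemzm, close to the threshold, under 16 of the 20 single-array omissions (0.0501 to 0.164).

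NIR, the nitrite reductase of nitrogen assimilation, fell in RIL118 and rose in the other lines. It had 8.76 and 9.20 at early silking and 10.33 and 9.66 at emerging tassel in RIL118, a change of -1.01 (SE 0.28, adjusted p = 0.0381), against 0.39 to 1.26 in the other lines. The difference was -1.77 (SE 0.31, adjusted p = 0.0115). Lsi1, known in rice as a silicon channel of the root, had 7.44 and 8.28 at early silking and 9.24 and 10.11 at emerging tassel in RIL118, a change of -1.82 that was not called (adjusted p = 0.123). The other lines changed by 1.06 to 2.52, and the difference was -3.58 (SE 0.81, adjusted p = 0.0317). Without early silking replicate 1 of RIL118 the differences of NIR and Lsi1 were not called (0.0893 and 0.171). Lsi1 was also lost without early silking replicate 2 (0.0607) or emerging tassel replicate 2 (0.0937) of RIL118, either RIL39 emerging tassel array (0.0584 and 0.056), RIL99 early silking replicate 1 (0.0535) or RIL71 early silking replicate 2 (0.051). The fall of NIR itself was lost without RIL118 early silking replicate 1 (0.182), early silking replicate 2 (0.091) or emerging tassel replicate 1 (0.232), and without any RIL99 array (0.051 to 0.054) or RIL39 emerging tassel array (0.0567).

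VTE5, a phytol kinase of tocopherol synthesis in Arabidopsis, had 10.49 and 10.33 at early silking and 10.77 and 10.60 at emerging tassel in RIL118, with a difference of -1.25 (SE 0.22, adjusted p = 0.0126). psiP differed by -1.16 (SE 0.23, adjusted p = 0.019) and STY2 by -0.70 (SE 0.15, adjusted p = 0.0232). All 3 were lost without early silking replicate 1 (0.0633 to 0.132), VTE5 and STY2 without early silking replicate 2 (0.0534 and 0.0511), psiP without emerging tassel replicate 1 (0.0665) and STY2 without emerging tassel replicate 2 (0.0565). Smaller differences, which also depended on single arrays, were measured for the aquaporin nip3a (-0.94, SE 0.24, adjusted p = 0.0489), the ribosomal protein RPS10 (-0.79, SE 0.19, adjusted p = 0.0371), the retinoblastoma-related rrb2 (-1.13, SE 0.29, adjusted p = 0.0489), the MADS factor zap1 (-0.66, SE 0.16, adjusted p = 0.0408) and the histone deacetylase Hda1 (1.0, SE 0.24, adjusted p = 0.0371). Without RIL118 early silking replicate 1 these 5 gave adjusted p of 0.18 to 0.253.

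The interaction was repeated against each class of lines. Against the favorable lines RIL99 and RIL54, 865 probe sets were called (7.84%), 364 with a higher (3.3%) and 501 with a lower (4.54%) change in RIL118. Against the bin 6.06 lines RIL39 and RIL71, 127 were called (1.15%), 72 higher (0.653%) and 55 lower (0.499%). The first count was 172 without RIL118 early silking replicate 1 and 1585 without RIL54 emerging tassel replicate 1. It was 372 to 574 without RIL118 early silking replicate 2 or emerging tassel replicate 1, any RIL99 array, RIL54 early silking replicate 1 or emerging tassel replicate 2, or either RIL39 emerging tassel array. The second count was 50 and 77 without RIL118 early silking replicates 1 and 2, and 57 to 68 without RIL39 early silking replicate 1 or either RIL39 emerging tassel array. It was 237 without RIL118 emerging tassel replicate 1, 193 without either RIL54 emerging tassel array and 259 without RIL71 emerging tassel replicate 2. Of the 23 genes in the plot of differing changes, 21 were called against the favorable lines and 6 against the bin 6.06 lines. These 2 comparisons share the 4 RIL118 arrays. The 23 genes were chosen by the difference from the mean of both classes on the same arrays, so these calls are not separate support. AGA3b differed by 2.95 (SE 0.41) against the favorable lines and by 4.02 (SE 0.41) against the bin 6.06 lines, and calmodulin by 1.61 (SE 0.23) and 1.72 (SE 0.23).

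Bin 9.02 was not placed on the genome assembly, so only the whole of chromosome 9 could be counted. Of 62 named probe sets on chromosome 9, 6 were called for the stage change in RIL118 (9.68%) and 1 for the difference from the other lines (1.61%). Over all named probe sets the shares were 9.96% and 5.81%.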

How the data were processed

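Total RNA of ear internodes was hybridised to 20 Affymetrix maize arrays, 1 sample per array. The authors' deposited values are log2 values per probe set, and GCRMA, a background correction and summary of probes, is named in the submitters' processing notes, while its version is not given in the sources used here. GCRMA pulls dim probe sets to a common floor, so changes against the floor are limited. Scanner files were not used here. Control probe sets (179) and 6522 of 17555 maize probe sets without a log2 value above 5 in at least 2 of 20 arrays were left out. The remaining 11033 were fitted in limma 3.58.1, run under R 4.3.3, as 10 group means with contrasts for stage and for its difference between lines, and Benjamini-Hochberg adjustment over all 11033 at 0.05. The number of arrays limits the precision. The script was tested on simulated data. The fit takes 1 spread per probe set for all groups. In simulated data with equal spread, the share of false calls was close to 0.05. With the spread of each group as measured, it was well above 0.05, so more of the calls in RIL118 may be false than the threshold states.

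GEO's platform annotation gave 1 gene symbol for 1452 probe sets and several for 1, and symbols were updated through gene IDs, of which 1377 probe sets matched the RefSeq table. The 33 gene lists and the genes named were chosen with earlier results of these data known. Named were the 10 largest called rises and falls without overlap between stages, up to 3 called members of each list, all members of the lignin, secondary cellulose and oxidase lists, and, for the difference from the other lines, the 5 genes with the smallest p in each direction and up to 3 list members called only there. A gene with several probe sets is represented by the brightest in a list and by the largest change among the rises and falls. Alternatives were no filter, quantile normalization, median centring, array weights by group, a trended and robust prior, the RNA amount as covariate, the replicate number as block, RIL118 alone, and each array left out, where a lone array is assumed to vary like the other groups. Replicate numbers were checked for pairing: over 45 pairs of groups, same-numbered deviations correlated at -0.436 to 0.512, 16 of them above 0.1, and at -0.0187 within RIL118, so the numbers were not taken as pairs.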

Additional observations from a re-analysis of the deposited data

Results flagged for a closer look

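The stage change differed between RIL118 and the mean of the other 4 lines for 507 probe sets by the test of the difference itself. The named genes below were flagged for the same reason, and each value is the log2 stage change (early silking minus emerging tassel) of RIL118 minus that of the other lines.

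Among genes of growth and walls, the difference was 3.08 for expB7, 2.78 for expB6 and 1.0 for tub6. Among genes of sugar and starch it was 3.56 for ivr2, 2.73 for gpc4, 2.44 for gpc3, -1.95 for sbe1 and -1.05 for Agpsemzm. Among membrane channels it was 2.37 for tip1, -3.58 for Lsi1 and -0.94 for nip3a. Among heat shock proteins it was 5.5 for hsp22, 2.80 for hsp18f and 0.63 for hsp70-5. Among cytokinin response regulators it was 1.62 for RR4 and 1.70 for RR5.

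For the remaining named genes it was 3.49 for AGA3b, 2.84 for PEAMT, 1.66 for calmodulin, 1.0 for Hda1, -0.66 for zap1, -0.70 for STY2, -0.79 for RPS10, -1.13 for rrb2, -1.16 for psiP, -1.25 for VTE5 and -1.77 for NIR. The differences of PEAMT, hsp18f, ivr2, hsp22, gpc4, AGA3b and calmodulin were called under every alternative run. These alternatives left out single arrays but no whole line. Set against RIL39 and RIL71 only, the differences of hsp18f, hsp22 and ivr2 were not called (adjusted p = 0.0647, 0.0628 and 0.534 by limma). Those of PEAMT, gpc4, AGA3b and calmodulin were called there too. RR4 has another probe set, brighter on average, at which the difference was 1.18 and was not called (adjusted p = 0.0642 by limma). The RR4 value of 1.62 was close to the threshold (adjusted p = 0.0498) and was lost without either emerging tassel array (0.126 and 0.0792) or either early silking array (0.186 and 0.114) of RIL118. No group had enough arrays for a test of single outlying arrays.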

How the results depend on the processing

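With 2 arrays a group, the stage counts of RIL118 depended on single arrays and on how the spread was modelled. The 1288 called probe sets became 543 with array weights by group, 788 with the RNA amount as covariate and 15 in RIL118 alone, and ranged from 180 to 1497 with 1 array left out. The 507 differences from the other 4 lines became 176 with array weights and 284 with the RNA amount, and ranged from 67 to 1056 with 1 array left out. The 865 against the favorable lines became 337 with array weights and 423 with the RNA amount, and ranged from 172 to 1585. The 127 against the bin 6.06 lines became 67 with array weights and ranged from 50 to 259. RIL118 alone has no other line to compare, so that alternative gave no value for the differences. It was fitted on fewer arrays and on the spread of RIL118 alone, which at emerging tassel was larger than in each other line. The cause of these changes in count was not tested.

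The counts stayed within 1.5 times without a filter, with quantile normalization, with median centring and with a trended, robust prior. With the replicate block they were 1133, 400, 630 and 109, and of the single genes 7 differences from the other lines lost their call (RR4, Agpsemzm, nip3a, hsp70-5, RPS10, rrb2 and zap1). Over all single-gene values and alternatives, 2403 kept direction and side of the threshold, 389 fell short of it, 13 passed it newly and 0 changed sign. Of the 1288 probe sets, 166 (12.9%) were also called without early silking replicate 2.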

Other observations

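The genes here were chosen after their values were seen. They form no list, and nothing was tested about them as a group. rpot1, a phage-type RNA polymerase of mitochondria, had 8.96 and 8.86 at early silking and 7.58 and 7.85 at emerging tassel, a rise of 1.19 (SE 0.22, adjusted p = 0.00724 by limma). The prohibitin phb3 rose by 1.04 (adjusted p = 0.0465 by limma). The protein disulfide isomerase pdi4 rose by 0.99 (adjusted p = 0.00735 by limma). brk1, a subunit of the SCAR/WAVE complex that branches actin, changed by -0.70 (adjusted p = 0.0191 by limma).

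The 2 emerging tassel arrays of RIL118 disagreed most, among named genes, for opr1, with 9.29 and 3.52, and for piip1, with 7.67 and 2.08. FAD8 had 9.72 and 6.18. The aquaporin pip2f ran the other way, with 6.38 and 9.50. None of these 4 was called between stages.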
